A study of Mus musculus with 12 samples.

Results

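Collagen genes were described through the open chromatin assigned to them: peaks of all 12 ATAC-seq libraries that overlapped by at least 1 bp were merged into regions, and a region was taken when its nearest protein-coding gene, within 100 kb, had a symbol made of Col, a number, a and a number. This gave 682 collagen regions among 136540 gene-assigned regions (0.499%), out of 153346 regions in all. They belonged to 43 of the 44 collagen genes of the RefSeq table, and Col10a1 had none. Below, a library calls a region if any of its peaks touches it. In a bulk library, a region called less often because fewer cells have it open and one less open per cell cannot be told apart.

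Collagens are triple-helical proteins of the extracellular matrix that are sorted into classes by the structures they build. Fibrillar collagens form the banded fibrils of bone, tendon and cartilage, FACIT collagens (fibril-associated collagens with interrupted triple helices) decorate those fibrils, and type IV collagens form the sheet of basement membranes. Bone mesenchymal stem cells and the osteoblasts, chondrocytes and fibroblasts that arise from them are major makers of fibrillar collagen.

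ATAC-seq, in which a transposase inserts adapters into accessible DNA, was run on mouse cells labelled MSCLCs. The series title concerns YAP1, IGF-1 and the Ewing sarcoma fusion oncogene EWS::FLI1 in bone mesenchymal stem cells, and the design text speaks of WT and EFPrx1 cells, the latter also with the prefixes ha and hr. The genotype labels gave the groups Wt (4 libraries), Wt_IGF1 (1 library), EF (4 libraries), EF_IGF1 (2 libraries) and EF_IGF1_xeno (1 library). Wt libraries carried the line names WT_1, WT_2, BM and S_203 in the order of replicates 1 to 4, and Wt_IGF1 carried BM. EF replicates 1 and 3 and EF_IGF1 replicate 1 carried S_220, and EF replicates 2 and 4, EF_IGF1 replicate 2 and EF_IGF1_xeno carried S_221, so the EF group held 2 lines. Flowcell BSF_0654 held replicates 1 and 2 of Wt and EF, and flowcell BSF_1013 held the remaining 8 libraries, IGF1 samples included. What EF, xeno, ha and hr stand for, the promoter behind the EF genotype, the dose and time of IGF1 and the age of the animals are not stated in those sources. The origin of the replicates is not stated either, so p-values measure only the spread between these libraries, which may be technical.

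The peak lists held between 7748 peaks (Wt replicate 1) and 83718 peaks (Wt_IGF1), and these lengths stand in for depth, since no source used here gives read totals. Wt replicate 1 had the shortest list, and Wt replicate 2 the highest share of called regions near blood cell markers. Of the 90 regions of 10 blood cell marker genes, 75.6% were called in Wt replicate 2 and between 8.89% and 33.3% in each other library. Of the 237 regions of 12 mesenchymal stem and limb marker genes, 0.844%, 23.6%, 37.1% and 50.2% were called in Wt replicates 1 to 4, where 5.37%, 41.0%, 36.2% and 44.5% of all gene-assigned regions were. The marker share was 13.9% to 45.6% in the EF libraries, 33.8% and 37.6% in EF_IGF1, 26.2% in EF_IGF1_xeno and 49.8% in Wt_IGF1. In the same order, all gene-assigned regions stood at 17.6% to 43.9%, 38.1% and 41.0%, 27.9% and 52.5%. EF replicate 2 lay below Wt replicate 2 both in the marker share (13.9% against 23.6%) and over all regions (17.6% against 41.0%). The part of these markers in the collagen results was not tested. EF_IGF1 replicate 1, labelled line S_220, shared 61.2% of the union of called gene-assigned regions with EF replicate 4 of line S_221 and 42.7% with EF replicate 3 of its own line name. Over collagen regions alone these shares were 59.5% and 36.5%.

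The starts of collagen genes differed in how many libraries they were open in, and the 250 bases before 6 of these starts are shown as examples of starts open in most libraries or in some groups only. Other patterns occurred, such as that of Col8a1, open in EF replicate 4, both EF_IGF1 libraries and EF_IGF1_xeno. Col1a2, a chain of type I collagen, Col6a1, a chain of the type VI microfibril, and Col4a1, a chain of the basement membrane sheet, had starts open in 10 libraries. Col6a5, a further type VI chain, had a start open in the Wt and Wt_IGF1 libraries of flowcell BSF_1013 alone. Col23a1, a transmembrane collagen, and Col27a1, a fibrillar collagen of cartilage, had starts open in Wt, Wt_IGF1 and EF libraries but in neither EF_IGF1 library and not in EF_IGF1_xeno. The sequences are those of RefSeq on GRCm38.p6, written 5′ to 3′ in the direction of the gene. Capitals mark a CCAAT box or an AP-1 consensus (TGANTCA) on either strand, and the other 4 motifs searched had no match in these 6 stretches.
Col1a2, chr6:4505368-4505617, plus strand: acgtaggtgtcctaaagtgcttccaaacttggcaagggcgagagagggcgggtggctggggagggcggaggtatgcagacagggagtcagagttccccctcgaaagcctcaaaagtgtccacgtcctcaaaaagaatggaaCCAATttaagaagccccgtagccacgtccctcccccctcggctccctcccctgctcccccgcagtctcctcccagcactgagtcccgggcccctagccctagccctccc
Col6a1, chr10:76726045-76726294, minus strand: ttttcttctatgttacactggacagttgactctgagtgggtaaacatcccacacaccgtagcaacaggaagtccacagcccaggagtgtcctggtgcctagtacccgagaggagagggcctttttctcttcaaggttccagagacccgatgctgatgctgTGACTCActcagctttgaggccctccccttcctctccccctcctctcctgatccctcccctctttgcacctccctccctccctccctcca
Col4a1, chr8:11312827-11313076, minus strand: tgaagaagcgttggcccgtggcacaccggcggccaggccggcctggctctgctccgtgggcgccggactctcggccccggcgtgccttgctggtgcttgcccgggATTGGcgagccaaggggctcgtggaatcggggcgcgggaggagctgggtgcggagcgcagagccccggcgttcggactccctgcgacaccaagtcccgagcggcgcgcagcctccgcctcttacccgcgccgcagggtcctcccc
Col6a5, chr9:105960644-105960893, minus strand: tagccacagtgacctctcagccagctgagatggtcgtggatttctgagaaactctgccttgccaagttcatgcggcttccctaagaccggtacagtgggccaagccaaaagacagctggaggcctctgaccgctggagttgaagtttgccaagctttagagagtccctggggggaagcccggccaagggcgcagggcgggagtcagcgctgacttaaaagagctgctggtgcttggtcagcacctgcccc
Col23a1, chr11:51289670-51289919, plus strand: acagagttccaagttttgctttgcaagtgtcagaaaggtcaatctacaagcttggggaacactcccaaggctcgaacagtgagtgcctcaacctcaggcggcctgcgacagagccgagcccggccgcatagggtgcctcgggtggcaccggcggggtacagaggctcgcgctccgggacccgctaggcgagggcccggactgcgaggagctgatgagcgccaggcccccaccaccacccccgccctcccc
Col27a1, chr4:63215162-63215411, plus strand: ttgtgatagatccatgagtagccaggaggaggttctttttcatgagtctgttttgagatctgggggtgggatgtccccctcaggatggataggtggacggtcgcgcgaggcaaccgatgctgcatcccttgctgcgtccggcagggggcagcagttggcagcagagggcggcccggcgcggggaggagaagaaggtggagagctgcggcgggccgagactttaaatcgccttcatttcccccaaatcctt

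Of the 44 collagen genes 35 had a start in the RefSeq promoter table, with 38 starts in all. The motif CCAAT, a common promoter element, was present in 34.2% of the 38 collagen windows of 300 bases (250 before and the rest after the start) and in 38.5% of all 21045 windows. TGANTCA, the AP-1 consensus, was present in 2.63% of the collagen windows, that of Col6a1, and in 7.04% of all. The TATA box, TATAAA, was in 13.2% of the collagen windows and 12.7% of all. The TEAD consensus, GGAATG, was in 13.2% and 13.5%. A pair of the GGAA units that EWS::FLI1 binds as repeats, GGAAGGAA, was in 5.26% and 3.46%, and can overlap with the TEAD consensus, as it does in Col4a6. The E-box CACGTG was in 0 collagen windows and in 7.91% of all. Every motif was searched on both strands, and a match describes letters only.

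A start is called open here when a peak of the library overlaps its window. Of the 38 collagen starts, 12 (31.6%) were open in no library, against 38.8% of all starts. At the other end, 1 collagen start (2.63%) was open in 11 or 12 libraries, against 35.1% of all starts, and none was open in all 12, against 22.1%. Leaving Wt replicates 1 and 2 aside, 4 collagen starts (10.5%) were open in each of the other 10 libraries, against 33.6% of all starts. Of those 4, 1 was open in Wt replicate 2 and 0 in Wt replicate 1, whereas 98.1% and 65.7% of all such starts were. The number of open collagen starts ran from 8 (EF replicate 2) to 21 (Wt_IGF1 and Wt replicate 4) outside Wt replicates 1 and 2, which had 0 and 7.

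The start of Col1a2 had a fold over local background, the authors' own value for the peak, of 5.48 and 5.46 in Wt replicates 3 and 4, 5.53 in Wt_IGF1, 5.64, 5.92, 7.16 and 6.27 in EF replicates 1 to 4, 5.17 and 5.90 in the EF_IGF1 libraries and 7.34 in EF_IGF1_xeno. It had no peak in Wt replicates 1 and 2. The Wt and Wt_IGF1 folds lay below those of the 4 EF libraries, and EF_IGF1 lay on either side of Wt, but folds of separate lists show no change by themselves. For Col1a1, the other chain of type I collagen, the table used gives no strand, so both gene ends were read. The end with the lower coordinate had a peak in 9 libraries, with folds of 4.26 and 3.77 in Wt replicates 3 and 4, 3.61 in Wt_IGF1, 3.62, 4.62 and 4.12 in EF replicates 1, 3 and 4, 5.88 and 5.27 in EF_IGF1 and 3.11 in EF_IGF1_xeno. The other end had none. Col3a1, the fibril partner of type I collagen in soft tissue, had a start open in 8 libraries: Wt replicates 3 and 4 (4.83 and 4.50), Wt_IGF1 (4.25), EF replicates 1 to 4 (4.68, 4.80, 4.88 and 4.15) and EF_IGF1 replicate 2 (4.33).

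Col2a1, the main fibrillar collagen of cartilage, had no strand in the table used. Its end with the lower coordinate had a peak in EF replicates 1 and 4 (folds 7.08 and 10.8), both EF_IGF1 libraries (6.62 and 7.67) and EF_IGF1_xeno (7.76), and in no Wt library. Its other end had a peak in Wt_IGF1 alone (4.49). Col10a1, the collagen of hypertrophic cartilage, had 1 peak over its start window, in Wt_IGF1 (6.88), and the region of that peak was assigned to another gene. Neither end of Col12a1, a FACIT of tendon and bone surfaces, had a peak in any library.

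Col4a1 and Col4a2 lie head to head, and the same peak covered both starts. Its fold was 5.06 and 4.94 in Wt replicates 2 and 4, 4.20 in Wt_IGF1, 6.76, 6.15, 5.68 and 7.58 in EF replicates 1 to 4, 4.89 and 8.12 in EF_IGF1 and 8.60 in EF_IGF1_xeno. Wt replicates 1 and 3 had none. The start of Col6a1 had folds of 3.40 and 6.22 in Wt replicates 3 and 4, 5.0 in Wt_IGF1, 8.02, 5.15, 6.41 and 5.82 in EF, 6.16 and 5.97 in EF_IGF1 and 7.22 in EF_IGF1_xeno, with no peak in Wt replicates 1 and 2. Col18a1, the source of the fragment endostatin, has 2 starts in the table. The one with the higher coordinate was open in 7 libraries: Wt replicates 2 and 4 (6.02 and 11.8), Wt_IGF1 (5.30), EF replicate 4 (7.12), EF_IGF1 (7.23 and 8.03) and EF_IGF1_xeno (7.33). The inner one was open in 5: Wt replicates 3 and 4 (6.15 and 5.04), Wt_IGF1 (6.98), EF_IGF1 replicate 1 (3.62) and EF_IGF1_xeno (3.40), and thus in no EF library.

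The last 3 of the shown starts were picked after their values were seen. The Col6a5 start had folds of 8.51 and 5.22 in Wt replicates 3 and 4 and 9.19 in Wt_IGF1, and no peak elsewhere. The Col23a1 start had 8.27, 8.19 and 11.5 in Wt replicates 2 to 4, 10.1 in Wt_IGF1 and 4.69, 6.74 and 7.47 in EF replicates 1, 3 and 4. The Col27a1 start had 5.36 and 3.99 in Wt replicates 2 and 4, 5.65 in Wt_IGF1 and 5.83, 6.25 and 4.18 in EF replicates 1, 3 and 4. EF replicate 2, with the shortest EF list, lacked both of the last.

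By position, collagen regions lay inside the gene more often than regions in general, in 480 of 682 cases (70.4%) against 62.1% of all gene-assigned regions. In 39 (5.72%) the summit was at most 1 kb from where a protein-coding gene begins or ends, against 12.2%. Their median width was 428 bp, against 417 bp. Regions called in a single library made up 28.9% of the collagen regions and 35.7% of all, and regions called in all 12 libraries made up 0.293% (2 regions) and 4.20%. Per length, regions inside the gene were densest in Col2a1 (27.5 per 100 kb), Col15a1 (22.7) and Col4a1 (21.0) and sparsest in Col11a1 (1.58), Col4a5 (2.34) and Col9a1 (2.66), among genes with a region.

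Leaving out Wt replicates 1 and 2, 57 collagen regions (8.36%) were called in each of the other 10 libraries, against 11.01% of all gene-assigned regions. They belonged to 24 genes, led by Col5a1 (7 regions), Col4a2 (6), and Col1a2, Col6a1 and Col18a1 (5 each). Col5a1 makes the type V chain that starts type I fibrils. Of these 57 regions 22 (38.6%) were called in Wt replicate 2 and 2 (3.51%) in Wt replicate 1, against 80.3% and 38.2% of all such regions. All 5 of the Col1a2 regions were absent from both libraries. Of the collagen regions called in Wt replicate 2, 50 (37.3%) were called in no other library, against 37.4% over all regions.

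The share of the 682 collagen regions called per library was lowest in Wt replicate 1 and highest in Wt_IGF1, the libraries with the shortest and the longest list. It was 0.440% (95% Clopper-Pearson interval 0.0908 to 1.28) in Wt replicate 1, 19.6% (16.7 to 22.8) in Wt replicate 2, 39.1% in Wt replicate 3 and 51.3% in Wt replicate 4. It was 29.5%, 17.3%, 30.6% and 45.5% in EF replicates 1 to 4, 56.5% in Wt_IGF1, 41.8% and 45.7% in EF_IGF1 and 29.9% in EF_IGF1_xeno. Wt and EF overlapped, with means of 27.6% ± 22.3 and 30.7% ± 11.5 (SD, n = 4 each), and the order turned on flowcell BSF_1013, where they were 45.2% ± 8.61 and 38.0% ± 10.5 (SD, n = 2 each). These intervals cover counting error only, and the 4 EF libraries behind the SD carry 2 line names.

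Set against all regions called in the same library, Wt replicates 1 and 2 had the fewest collagen calls, 0.409 and 2.39 per 1000 called regions. Wt replicates 3 and 4 had 5.40 and 5.76 and Wt_IGF1 5.37. The EF libraries had 4.51, 4.90, 4.59 and 5.17, below each of those 3, and EF_IGF1 had 5.47 and 5.57 and EF_IGF1_xeno 5.36. On flowcell BSF_1013 EF and Wt thus did not overlap in this measure, with means of 4.88 ± 0.410 and 5.58 ± 0.254 (SD, n = 2 each), and over all 4 libraries a group they did.

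**Figure D1:**
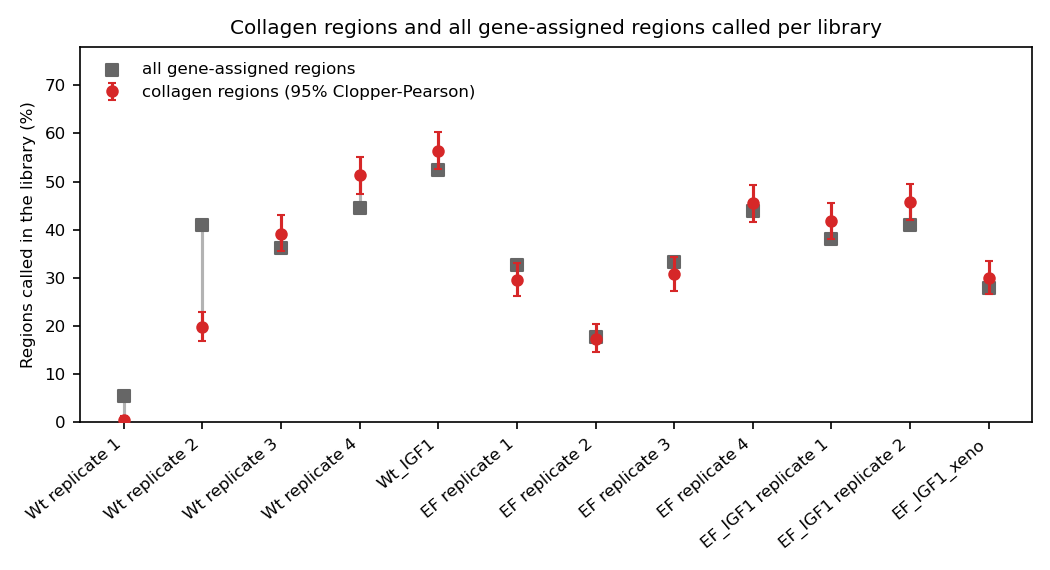
Share of regions called in each of the 12 libraries (y axis, percent), for the 682 collagen regions (circles, bars are exact 95% Clopper-Pearson intervals) and for all 136540 gene-assigned regions (squares). Collagen regions fall far below all regions in Wt replicate 2 (19.6% against 41.0%) and lie above them in Wt replicate 4 (51.3% against 44.5%).

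By class, fibrillar collagens held 183 regions, FACIT collagens 121, type IV (basement membrane network) 95, the type VI beaded filaments 92, multiplexins (Col15a1 and Col18a1, collagens of the basement membrane zone) 64, transmembrane collagens 63, short chain networks (Col8a1 and Col8a2) 33, the unclassed Col26a1 and Col28a1 28, and Col7a1, the anchoring fibril of skin, 3. The multiplexins, transmembrane and type IV collagens were called in Wt replicate 2 in 40.6%, 36.5% and 33.7% of their regions. The fibrillar and beaded filament classes were called there in 10.9% and 3.26%. All gene-assigned regions stood at 41.0% in that library.

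Fibrillar regions were called in 47.5% and 55.7% in Wt replicates 3 and 4, 61.2% in Wt_IGF1, 37.7%, 17.5%, 38.3% and 57.4% in EF, 47.0% and 50.3% in EF_IGF1 and 35.0% in EF_IGF1_xeno. No order of the groups held over these libraries. The genes with most regions were Col5a1 (34), Col5a2 (24), Col24a1 (23), Col27a1 (22), Col1a2 (19) and Col3a1 (15), followed by Col1a1 (11), Col11a1 (10), Col2a1 and Col5a3 (9 each) and Col11a2 (7). Of the 30 regions of Col1a1 and Col1a2, 0, 1, 20 and 24 were called in Wt replicates 1 to 4, 19 in Wt_IGF1, 14, 12, 16 and 23 in EF, 20 and 20 in EF_IGF1 and 17 in EF_IGF1_xeno. The type I genes were thus open at most of their regions in each library of flowcell BSF_1013, and at 1 region in Wt replicates 1 and 2 together.

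Beaded filament regions were called in 51.1% and 66.3% in Wt replicates 3 and 4 and 64.1% in Wt_IGF1. They were called in 15.2%, 25.0%, 25.0% and 43.5% in EF replicates 1 to 4, 37.0% and 52.2% in EF_IGF1 and 26.1% in EF_IGF1_xeno. On flowcell BSF_1013 EF and Wt did not overlap, with 34.2% ± 13.1 and 58.7% ± 10.8 (SD, n = 2 each), while all gene-assigned regions stood at 38.6% ± 7.48 and 40.4% ± 5.86. With Wt replicates 1 and 2 (0% and 3.26%) included, the groups overlapped. The gap on BSF_1013 did not hold for each type VI gene. Col6a4, Col6a5 and Col6a6 together had 19 and 20 of 31 regions called in Wt and 2 and 10 in EF. Col6a1 (14 regions) had 9 and 10 against 5 and 6. Col6a2 (13 regions), with 6 and 9 against 4 and 8, overlapped between the groups. So did Col6a3 (34 regions), with 13 and 22 against 12 and 16.

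Transmembrane collagens were called in 36.5%, 19.0% and 44.4% in Wt replicates 2 to 4 and 38.1% in Wt_IGF1, against 14.3%, 9.52%, 15.9% and 22.2% in EF, 23.8% and 20.6% in EF_IGF1 and 7.94% in EF_IGF1_xeno. Wt replicate 3 lay within the range of EF and EF_IGF1, so these groups overlapped. FACIT regions were called in 33.9% and 41.3% in Wt replicates 3 and 4, 52.1% in Wt_IGF1, 30.6%, 14.9%, 30.6% and 44.6% in EF, 47.9% and 49.6% in EF_IGF1 and 37.2% in EF_IGF1_xeno. The FACIT genes with most regions were Col14a1 (30), Col12a1 (26), Col22a1 (23), Col19a1 (18) and Col16a1 (12), and Col9a1, Col9a2, Col9a3 and Col20a1 had 3 each.

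**Figure D2:**
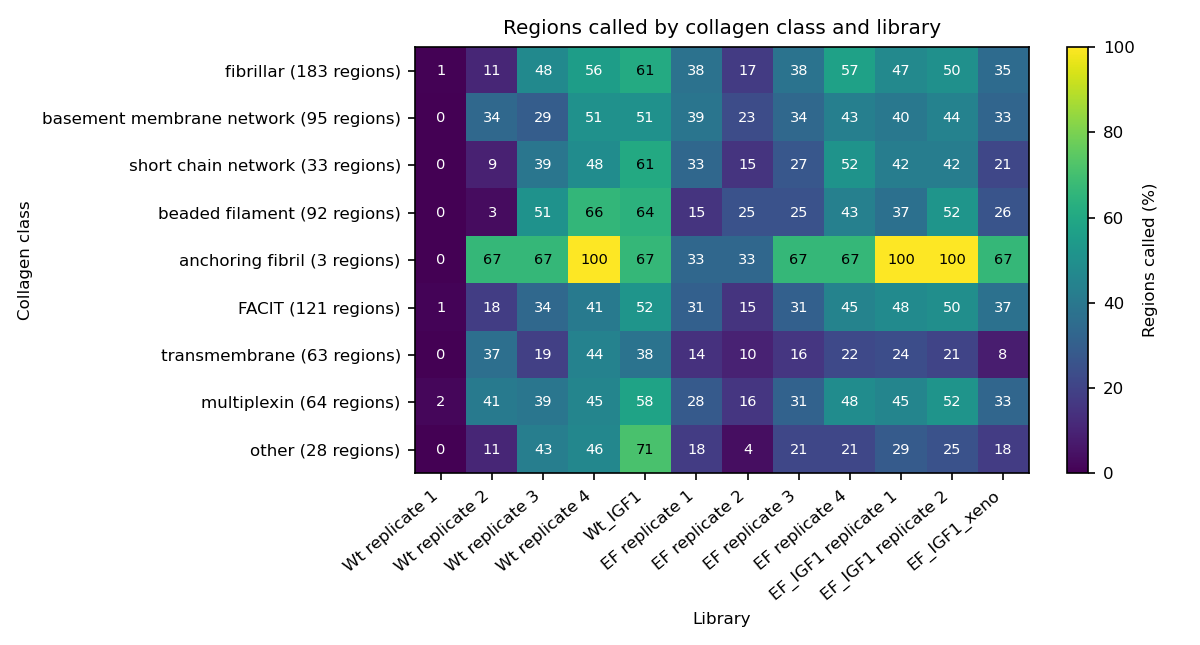
Share of regions called (colour and printed percent, rounded) by collagen class (rows, with the number of regions) and library (columns). The beaded filament class stands at 51.1% to 66.3% in Wt replicates 3 and 4 and Wt_IGF1. It stands at 15.2% to 43.5% in the EF libraries, 52.2% in EF_IGF1 replicate 2 and 3.26% in Wt replicate 2, so the groups overlap. All gene-assigned regions stand at 36.2%, 44.5% and 52.5% in Wt replicates 3 and 4 and Wt_IGF1 and at 17.6% to 43.9% in EF. Wt replicate 1 is near 0 in every class.

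EF and Wt were compared to find collagen regions whose openness goes with the EF genotype. A region counted as gained if 3 or 4 EF libraries and 0 Wt libraries called it, which held for 16 collagen regions of 12 genes (2.35%), against 1.15% of all gene-assigned regions. By the reverse rule 2 counted as lost (0.293%), against 0.978%. A lost region needed a call in Wt replicate 1 or 2. These libraries called 0.440% and 19.6% of collagen regions, against 5.37% and 41.0% of all. With both left out, the lost share was 4.69%, against 3.92% of all regions. Col18a1 held 4 of the gained regions and Col27a1 2, and Col4a1, Col4a6, Col5a1, Col8a1, Col11a1, Col13a1, Col14a1, Col15a1, Col22a1 and Col24a1 held 1 each. By class, multiplexins had 5 of 64 regions gained (7.81%) and fibrillar collagens 5 of 183 (2.73%), and beaded filaments had 0 of 92. Of the 16, 12 lay inside the gene, among them 1 at the start of Col11a1, a minor fibrillar collagen of cartilage. All 16 were called in EF replicates 1 and 4, 14 in EF replicate 3 and 3 in EF replicate 2. Over all 1570 gained regions the shares called were 96.4%, 98.9%, 84.5% and 34.3% in that order.

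The Col24a1 region at chr3:145471057-145471513, inside this fibrillar collagen gene of developing bone, had folds of 13.3, 6.19, 11.3 and 18.3 in EF replicates 1 to 4, 15.3 and 6.48 in EF_IGF1, 9.28 in EF_IGF1_xeno and 6.39 in Wt_IGF1. No Wt library had a peak. The Col18a1 region at chr10:77142252-77142767, inside the gene, had 5.45, 8.85 and 13.6 in EF replicates 1, 2 and 4, 14.1 and 9.74 in EF_IGF1 and 12.1 in EF_IGF1_xeno, and no peak in EF replicate 3, Wt or Wt_IGF1. A further intragenic Col18a1 region, chr10:77151391-77152152, had 6.48, 4.66 and 10.1 in EF replicates 1, 3 and 4, 12.4 and 7.20 in EF_IGF1 and 9.58 in EF_IGF1_xeno. Both were thus called in each library of the EF_IGF1 and EF_IGF1_xeno groups and in no Wt or Wt_IGF1 library. The Col4a1 region at chr8:11263804-11264272 had 9.09, 6.49 and 5.61 in EF replicates 1, 3 and 4, 3.47 in EF_IGF1_xeno and no other peak.

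The lost regions were a Col4a1 region at chr8:11249596-11250456, with folds of 11.3, 10.5 and 11.9 in Wt replicates 2 to 4 and 9.97 in Wt_IGF1, and a Col15a1 region at chr4:47231249-47231764, with 9.11, 10.2 and 6.45 in Wt replicates 2 to 4 and 7.14 in Wt_IGF1. Both lie inside their gene, and neither had a peak in any EF, EF_IGF1 or EF_IGF1_xeno library. Of the 16 gained regions, 7 were called in Wt_IGF1, 6 and 8 in EF_IGF1 replicates 1 and 2 and 6 in EF_IGF1_xeno. Over all gained regions the shares called there were 36.6%, 59.8%, 58.0% and 47.5%.

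By Fisher's exact test per region over the 136540 regions, two-sided, no region passed a Benjamini-Hochberg adjusted p of 0.05, and the lowest adjusted p was 1. The smallest p that 4 against 4 libraries allows is 0.0286, reached unadjusted by 304 regions (0.223%), of which 1 was a collagen region, that of Col24a1. The test counts the 4 EF libraries as separate, though they carry 2 line names. With 1 EF library left out, a gained region needed calls in all 3 others. Without EF replicate 1, 3 or 4 these include EF replicate 2, which called 3 of the 16. Likewise a lost region needed all 3 other Wt libraries, and without Wt replicate 2, 3 or 4 these include Wt replicate 1, which called 3 collagen regions. The gained count moved with that of all regions. It was 1 without EF replicate 1 (0.147%, against 0.204% of all regions), 3 without EF replicate 3 (0.440% against 0.341%), 1 without EF replicate 4 (0.147% against 0.175%) and 28 without Wt replicate 4 (4.11% against 2.42%). The lost count was 5 without EF replicate 4 (0.733% against 1.86%) and 0 without Wt replicate 2, 3 or 4 (0.0601%, 0.0864% and 0.0981% of all regions). With Wt replicates 1 and 2 left out together, 32 were lost (4.69% against 3.92%) and 16 gained (2.35% against 1.46%).

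Within flowcell BSF_1013, with EF replicates 3 and 4 against Wt replicates 3 and 4, 19 collagen regions were gained, against 1.89% of all regions, and 38 were lost, against 4.4%. The collagen shares were 2.79% and 5.57%. The gained regions included 3 of Col18a1 and 2 each of Col24a1, Col27a1 and Col4a1, and 1 of Col1a2 and of Col6a3. The lost regions spread over 21 genes: 5 were of Col14a1, a FACIT of tendon and skin, 3 of Col26a1, and 8 of type VI genes (2 each of Col6a1, Col6a3, Col6a5 and Col6a6). By class, 5 of 28 Col26a1 and Col28a1 regions were lost (17.9%), 8 of 92 beaded filament regions (8.70%) and 2 of 95 type IV regions (2.11%). With 1 library of a pair left out, here and below, the rule rested on the single library left on that side. The gained count was 78 without EF replicate 3 (11.4%, against 11.7% of all regions), 45 without EF replicate 4 (6.60% against 7.30%) and 49 without Wt replicate 4 (7.18% against 5.21%), so without either EF library the collagen share was below that of all regions. The lost count was 92 without EF replicate 4 (13.5% against 9.49%), 106 without Wt replicate 3 (15.5% against 11.1%) and 85 without Wt replicate 4 (12.5% against 8.44%).

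The Col14a1 region at chr15:55465110-55466269 had folds of 12.0 and 14.8 in Wt replicates 3 and 4, 12.8 in Wt_IGF1, 5.15 in EF replicate 1, and 7.10 and 6.76 in EF_IGF1. The Col6a3 region at chr1:90706311-90706951, outside this type VI gene by 59.9 kb, had 11.5 and 14.3 in Wt replicates 3 and 4, 12.4 in Wt_IGF1 and 12.1 in EF_IGF1 replicate 2. Neither had a peak in EF replicates 3 and 4.

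On flowcell BSF_0654, with replicates 1 and 2 of both groups, 54 collagen regions were gained (7.92%), against 4.06% of all regions, and 0 were lost, against 0.516%. Col5a1 held 9 of them, Col1a2 and Col4a2 6 each, and Col6a1 and Col22a1 4 each. The Wt libraries of this flowcell are the 2 with few collagen calls, and the part of this in the counts cannot be told apart from the genotype there.

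**Figure D3:**
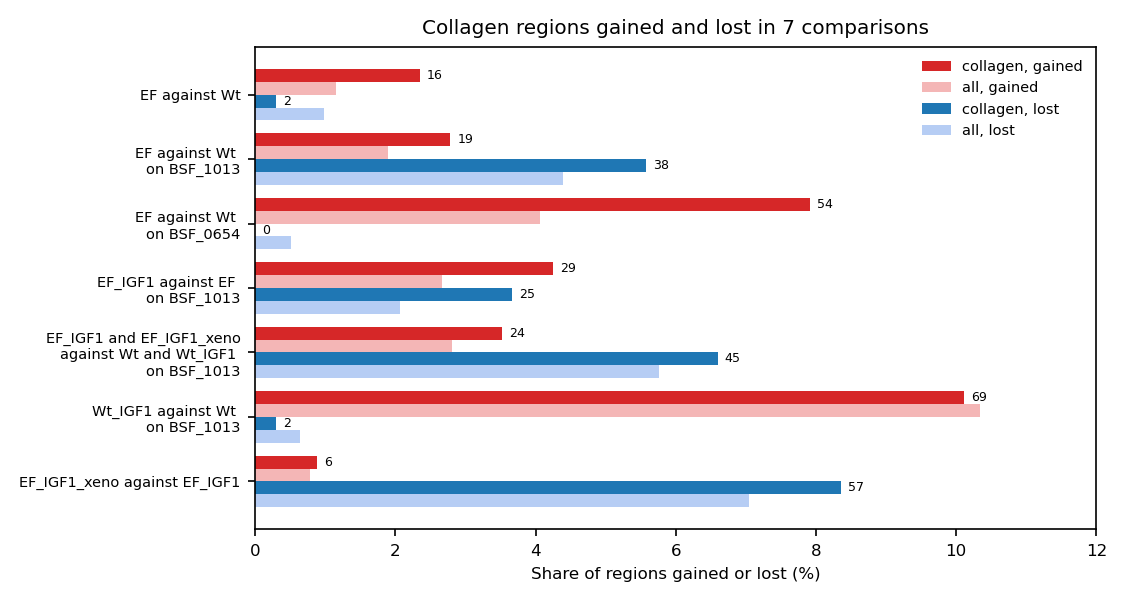
Share of collagen regions (dark bars, with the number of regions) and of all gene-assigned regions (pale bars) gained and lost in 7 comparisons (x axis, percent). Gained collagen regions exceed the share of all regions on flowcell BSF_0654 (7.92% against 4.06%) and over all EF and Wt libraries (2.35% against 1.15%), while in Wt_IGF1 against Wt the shares are close (10.1% against 10.3%).

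The comparison of EF_IGF1 with untreated EF on flowcell BSF_1013 asks what differs in EF cells with IGF1. With calls in EF_IGF1 replicates 1 and 2 but not in EF replicates 3 and 4, 29 collagen regions counted as gained (4.25%), against 2.66% of all regions, and by the reverse rule 25 as lost (3.67%), against 2.07%. Among the gained, FACIT collagens led with 11 of 121 (9.09%), made of 5 regions of Col22a1, 4 of Col14a1 and 2 of Col12a1. Col15a1 had 3, Col3a1, Col4a1 and Col5a1 2 each, and Col6a4, Col6a5 and Col6a6 1 each. The lost regions were led by fibrillar collagens with 8 of 183 (4.37%), of which 3 were of Col27a1, and by type IV with 6 of 95 (6.32%), of which 2 each were of Col4a3 and Col4a6 and 1 each of Col4a1 and Col4a4. Col19a1, a FACIT, and Col16a1 lost 1 each.

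The Col4a1 region at chr8:11184658-11185250, 13.2 kb outside the gene, had folds of 12.5 and 10.5 in EF_IGF1, 11.5 in EF_IGF1_xeno and no peak elsewhere. The Col22a1 region at chr15:72207932-72208478, 57.0 kb outside its gene, followed the same pattern, with 13.2, 8.33 and 7.66. The Col14a1 region at chr15:55510897-55511614 had 4.32 and 10.96 in EF_IGF1 and also 9.38 and 14.1 in Wt replicates 3 and 4 and 7.19 in Wt_IGF1, but no peak in EF or EF_IGF1_xeno. So the gained set held both regions seen in EF_IGF1 and EF_IGF1_xeno alone and regions that Wt libraries also had.

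Among the lost regions, the Col12a1 region at chr9:79718427-79719078 had 8.90, 7.36 and 4.98 in EF replicates 1, 3 and 4, 6.28 and 6.63 in Wt replicates 3 and 4 and 7.03 in Wt_IGF1. The Col2a1 region at chr15:98014183-98014665, outside the gene, had 5.41, 8.68 and 10.2 in EF replicates 1, 3 and 4, 4.45 in Wt replicate 3 and 4.91 in Wt_IGF1. A Col18a1 region at chr10:77123961-77124332 had 7.53, 8.58 and 4.08 in EF replicates 1, 3 and 4 and no other peak. None of the 3 had a peak in EF_IGF1 or EF_IGF1_xeno. By line name alone, 1 library against 1, the counts for S_220 were 153 gained (22.4%, against 16.7% of all regions) and 77 lost (11.3% against 11.9%). For S_221 they were 77 (11.3% against 7.96%) and 75 (10.997% against 10.9%). EF_IGF1 replicate 1 shared more calls with EF replicate 4 than with the EF replicate 3 of its own line name, as given above, so the S_220 values hold for the libraries so labelled. The gained count was 66 and 54 without EF_IGF1 replicates 1 and 2 (9.68% and 7.92%, against 6.76% and 6.21% of all regions) and 114 without EF replicate 4 (16.7% against 11.4%). The lost count was 59 and 63 without EF replicates 3 and 4 (8.65% and 9.24%, against 8.40% and 9.63%).

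With EF_IGF1 and EF_IGF1_xeno set against Wt replicates 3 and 4 and Wt_IGF1, all on flowcell BSF_1013 and called in 3 of 3 against 0 of 3, 24 collagen regions were gained (3.52%), against 2.81% of all regions, and 45 were lost (6.60%), against 5.76%. This comparison shares the EF_IGF1 libraries with that of EF_IGF1 and EF, and the Wt libraries with that of EF and Wt within flowcell BSF_1013. Col22a1 held 7 of the gained regions and Col4a1 3, with 1 each of Col1a1, Col1a2, Col2a1, Col3a1 and Col11a2. The 45 lost regions came from 27 genes, none with more than 3. The Col6a5 region at chr9:105880629-105881215 had folds of 12.9 and 13.9 in Wt replicates 3 and 4 and 16.8 in Wt_IGF1 and no other peak. The Col6a6 region at chr9:105814385-105814994 had 11.7, 17.1 and 14.7 in the same order and likewise no other peak. Without Wt replicate 4 the counts were 41 gained (6.01%, against 3.58% of all regions) and 82 lost (12.0% against 9.08%), and without Wt replicate 3 the lost count was 69 (10.1% against 9.08%).

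Wt_IGF1 was a single library, so its comparison with Wt replicates 3 and 4 has no replicate check. It called 69 collagen regions that neither Wt library had (10.1%), against 10.3% of all regions, and lacked 2 that both had (0.293%), against 0.639%. The collagen shares thus lay near those of all regions, and Wt_IGF1 had the longest list. Col15a1 and Col19a1 had 6 regions each among the 69, and Col12a1, Col14a1, Col24a1 and Col28a1 4 each, with 1 each of Col9a1 and Col9a3, chains of the cartilage FACIT type IX, and 1 of Col8a2. A region at chr19:47710143-47710733, 18.1 kb outside Col17a1, a collagen of the skin's hemidesmosomes, had a fold of 11.3 there, 7.65 and 9.41 in EF replicates 2 and 4 and 5.88 in EF_IGF1 replicate 2. The Col28a1 region at chr6:8010384-8010771 had 10.2 in Wt_IGF1 alone. The Col5a2 region at chr1:45580427-45581059 had 10 there, 9.60 and 9.85 in EF replicates 1 and 4, 12.6 and 8.08 in EF_IGF1 and 10.8 in EF_IGF1_xeno.

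The regions that Wt_IGF1 lacked were the Col6a2 region at chr10:76645195-76645465 (5.08 and 3.62 in Wt replicates 3 and 4 and 5.18 in EF replicate 4) and the Col14a1 region at chr15:55417174-55417989 (6.35 and 5.22 in the same Wt libraries, 10.1 in EF replicate 4, 8.17 and 9.56 in EF_IGF1 and 7.64 in EF_IGF1_xeno). Without Wt replicate 3 the counts were 118 (17.3%, against 15.5% of all regions) and 83 (12.2% against 7.56%). Without Wt replicate 4 they were 133 (19.5% against 18.2%) and 15 (2.20% against 1.97%).

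EF_IGF1_xeno was also 1 library, with a shorter list than both EF_IGF1 libraries. It called 6 collagen regions that neither EF_IGF1 library had (0.880%), against 0.784% of all regions, and lacked 57 that both had (8.36%), against 7.05%. The 57 came from 31 genes, with 4 each of Col8a1, Col14a1 and Col18a1, 3 each of Col4a1, Col5a1 and Col6a5, 2 of Col9a2 and 1 each of Col7a1, Col4a5 and Col20a1. The 6 were 1 each of Col3a1, Col4a1, Col5a1, Col5a2, Col9a1 and Col28a1. Among them, the Col5a1 region at chr2:27899900-27900369 had a fold of 6.43 in EF_IGF1_xeno, 6.50, 4.52 and 7.11 in EF replicates 1, 3 and 4 and 3.84 in Wt replicate 4. The Col5a2 region at chr1:45495092-45495373 had 5.92 there, 5.86 in EF replicate 1 and 5.06 in Wt_IGF1, and the Col28a1 region at chr6:8023623-8023879 had 6.07, with 4.26 in EF replicate 1 and 5.13 in EF replicate 4.

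Among the regions EF_IGF1_xeno lacked, the Col14a1 region at chr15:55510897-55511614 is described above with IGF1. The Col27a1 region at chr4:63233441-63234347 had 7.47 and 8.97 in EF_IGF1, 6.36 and 4.61 in EF replicates 3 and 4, 4.66 in Wt replicate 4 and 4.97 in Wt_IGF1. The Col16a1 region at chr4:130087271-130087687 had 7.88 and 5.0 in EF_IGF1, 5.68, 7.64 and 5.68 in EF replicates 1, 3 and 4, 7.22 and 8.33 in Wt replicates 2 and 4 and 6.22 in Wt_IGF1. Without EF_IGF1 replicate 1 the counts were 15 (2.20%, against 1.90% of all regions) and 123 (18.0% against 15.0%). Without EF_IGF1 replicate 2 they were 12 (1.76% against 1.98%) and 93 (13.6% against 12.2%).

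The genes that follow were singled out after their values were seen. Their counts are read beside the share of all gene-assigned regions called in the same libraries, which was 5.37%, 41.0%, 36.2% and 44.5% in Wt replicates 1 to 4, 52.5% in Wt_IGF1, 32.6%, 17.6%, 33.3% and 43.9% in EF, 38.1% and 41.0% in EF_IGF1 and 27.9% in EF_IGF1_xeno. Col22a1, a FACIT of tissue junctions such as that of muscle and tendon, had 23 regions, called in 0, 0, 0 and 8 in Wt replicates 1 to 4, 1 in Wt_IGF1, 10, 5, 11 and 9 in EF, 17 and 17 in EF_IGF1 and 16 in EF_IGF1_xeno. The 3 libraries of EF_IGF1 and EF_IGF1_xeno were the highest, though over all regions they were below Wt replicate 4, and Wt replicate 4 lay within the range of EF. Counts of regions called in some groups only, here and for the genes below, were not made over all regions. A region called in a single library, as 35.7% of all gene-assigned regions were, always falls in 1 such count. Of the 23 regions, 14 were called in libraries of the EF, EF_IGF1 and EF_IGF1_xeno groups only, and 5 of those in each EF_IGF1 and EF_IGF1_xeno library and nowhere else. These 5 include chr15:72145446-72145883, inside the gene, with folds of 8.59, 10.9 and 10.3, and chr15:72129161-72129561, with 8.59, 7.29 and 6.09.

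Col6a6, Col6a5 and Col6a4, the long type VI chains, lie next to each other on chromosome 9 and held 31 regions. Of these, 0 were called in Wt replicates 1 and 2, 19 and 20 in Wt replicates 3 and 4 and 25 in Wt_IGF1. EF replicates 1 and 3 of line S_220 called 1 and 2, and EF replicates 2 and 4 of line S_221 called 6 and 10. EF_IGF1 called 14 and 12 and EF_IGF1_xeno 6. Each EF, EF_IGF1 and EF_IGF1_xeno library was thus below the 3 Wt and Wt_IGF1 libraries of flowcell BSF_1013 here, whereas over all regions EF replicate 4 (43.9%) and the EF_IGF1 libraries (38.1% and 41.0%) lay above Wt replicate 3 (36.2%). EF of line S_220 called fewer than EF of line S_221, with 2 libraries each, while over all regions S_220 (32.6% and 33.3%) lay between the S_221 libraries (17.6% and 43.9%). EF_IGF1 replicate 1, labelled S_220, was above both EF libraries of its line name. Of the 31 regions 14 were called in Wt or Wt_IGF1 libraries only, 2 in EF, EF_IGF1 or EF_IGF1_xeno libraries only, with no share over all regions to read them beside. The start of Col6a4 was open in Wt replicates 3 and 4, Wt_IGF1 and EF replicate 3, with folds of 11.5, 14.5, 15.1 and 6.10.

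Col25a1, a transmembrane collagen of neurons and muscle, had 25 regions, of which 0, 11, 2 and 13 were called in Wt replicates 1 to 4, 6 in Wt_IGF1, 1, 0, 0 and 0 in EF, 2 and 0 in EF_IGF1 and 1 in EF_IGF1_xeno. Most calls thus lay in Wt replicates 2 and 4 and in Wt_IGF1, and 22 of the 25 regions were called in Wt and Wt_IGF1 libraries only. This count was not made over all regions. Regions called in a single library made up 50.8% of the transmembrane class, against 35.7% of all gene-assigned regions. Most of the Col25a1 regions, and most of those 22, were called in a single library, mainly Wt replicate 2 or 4. Wt replicate 1 (0) lay within the range of EF, and Wt replicate 3 (2) equalled EF_IGF1 replicate 1 (2), so Wt overlapped with EF and with EF_IGF1. Of the other transmembrane genes, Col13a1 had 9 regions, Col17a1 7 and Col23a1 22.

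Col18a1 had 30 regions, called in 1, 10, 15 and 18 in Wt, 20 in Wt_IGF1, 12, 9, 14 and 21 in EF, 18 and 20 in EF_IGF1 and 13 in EF_IGF1_xeno. The total overlapped between groups although 4 of the 30 regions counted as gained in EF. Of the type IV genes, Col4a1 had 38 regions, Col4a2 26, Col4a3 and Col4a6 10 each, Col4a4 6 and Col4a5 5. Col4a3 and Col4a4, the paired chains of kidney basement membrane, were called at few regions in EF_IGF1 and EF_IGF1_xeno: 2, 0 and 1 of the 10 Col4a3 regions and 0 of the 6 Col4a4 regions in all 3. EF replicates 1 to 4 called 4, 2, 4 and 3 of the Col4a3 and 2, 0, 3 and 1 of the Col4a4 regions. Wt replicates 1 to 4 called 0, 2, 2 and 5 of the Col4a3 and 0, 0, 1 and 1 of the Col4a4 regions, and Wt_IGF1 6 and 2. Low counts were thus not confined to EF_IGF1 and EF_IGF1_xeno.

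**Figure D4:**
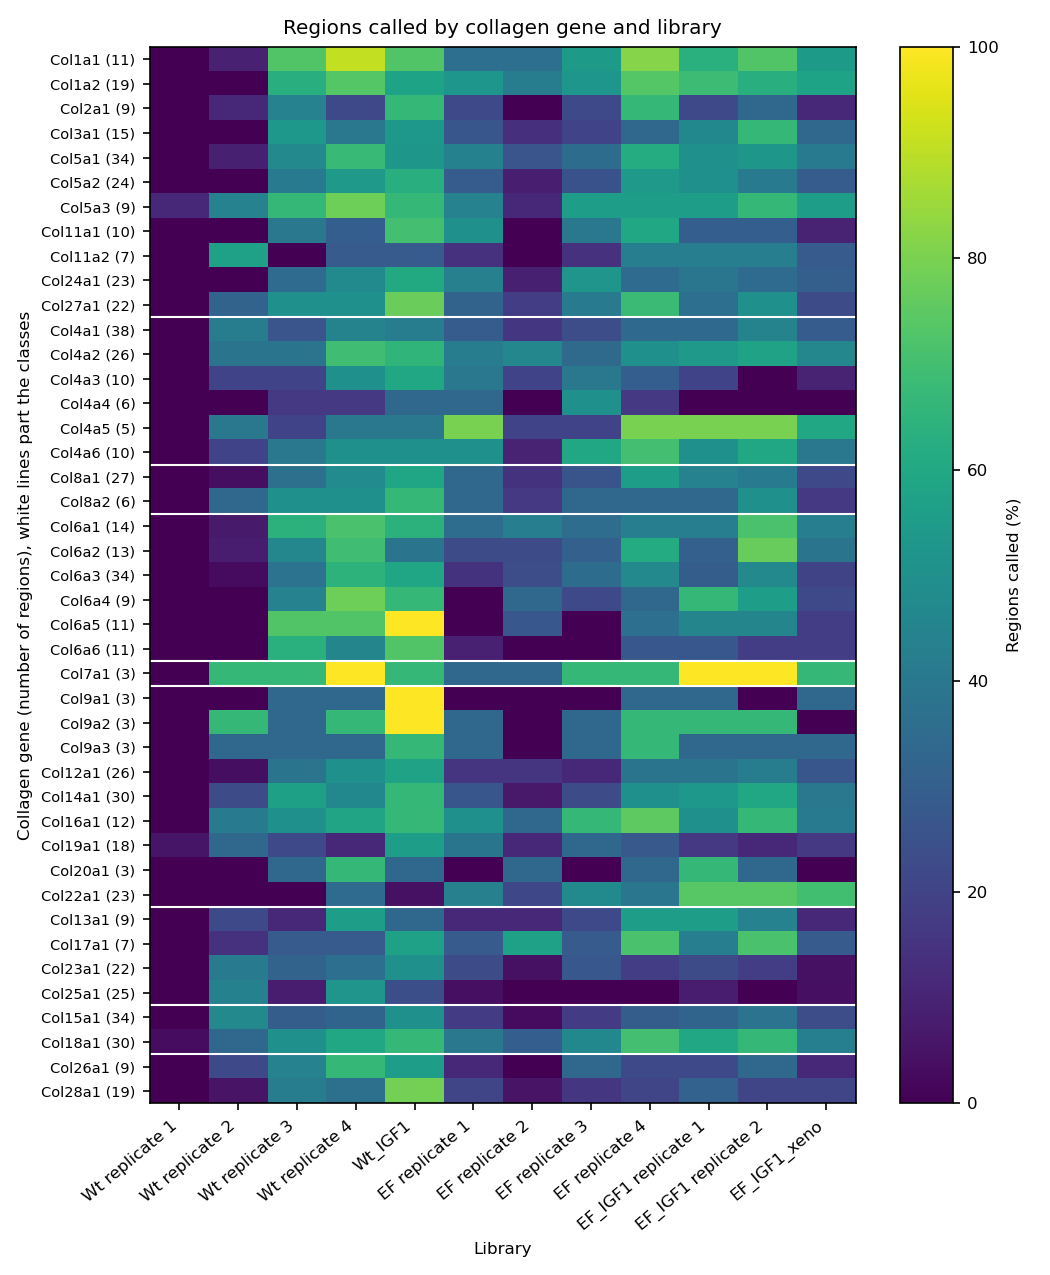
Share of the regions of each collagen gene (rows, grouped by class, number of regions in brackets) called in each library (columns), as colour in percent. Col22a1 is highest in EF_IGF1 and EF_IGF1_xeno (16 or 17 of 23 regions), and Col6a5 in Wt_IGF1 (11 of 11).

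**Figure D5:**
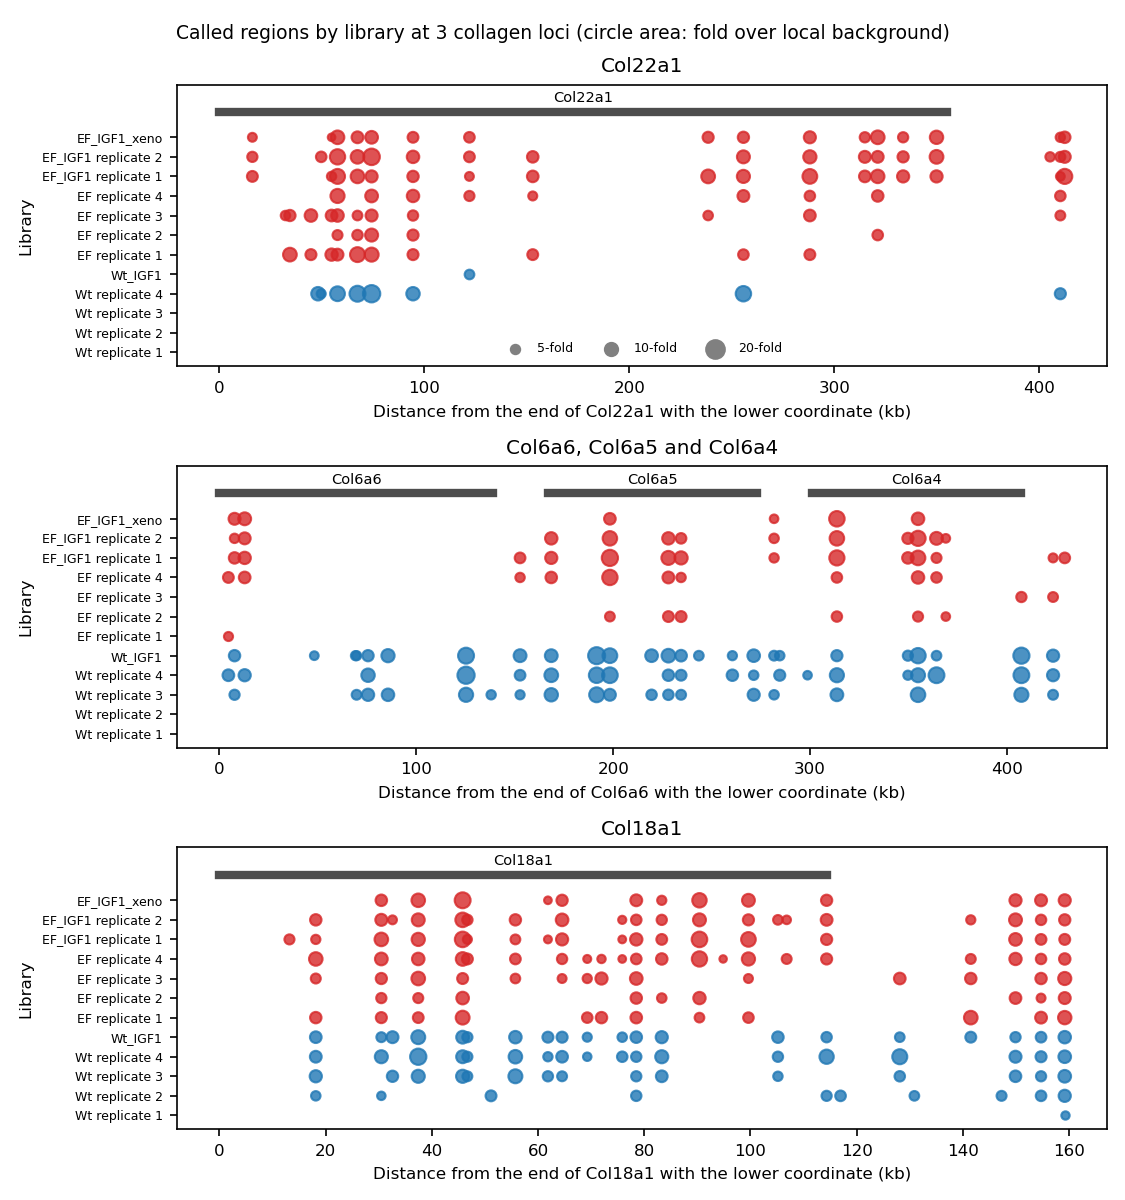
Called regions at the Col22a1, Col6a6 to Col6a4 and Col18a1 loci by library (y axis) and distance in kb from the end of the first gene with the lower coordinate (x axis); circle area is the fold over local background, blue marks Wt and Wt_IGF1, red the other groups and bars the genes. Wt replicate 3 has 0 calls at Col22a1 and 19 at the type VI cluster, and EF replicate 1 has 10 and 1. Wt replicate 4 has 8 and 20, EF replicate 4 has 9 and 10, and Wt replicates 1 and 2 have 0 at both. Of all gene-assigned regions, these libraries call 36.2%, 32.6%, 44.5%, 43.9%, 5.37% and 41.0% in that order.

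Genes that process, bind or accompany collagen were counted with the same rules, and the share over all gene-assigned regions is given beside them. In EF against Wt, where 1.15% of all regions were gained and 0.978% lost, 30 enzymes and chaperones of collagen making held 1 gained region of 253 (Pcolce2, an enhancer of procollagen cleavage) and 0 lost. The 10 collagen receptors held 2 gained of 147 (Itgb1, the shared integrin subunit, and Mrc2, a collagen uptake receptor) and 0 lost, and the 8 fibril-associated proteoglycans held 0 gained and 0 lost of 64. On flowcell BSF_1013 the enzymes and chaperones had 4 gained (1.58%, against 1.89% of all regions) and 15 lost (5.93% against 4.4%), of which 6 lost were of Plod2, a lysyl hydroxylase. The receptors had 3 and 7 there (2.04% and 4.76%) and the proteoglycans 1 and 2 (1.56% and 3.13%). With IGF1 in EF the 3 lists had 4, 4 and 3 gained regions (1.58%, 2.72% and 4.69%, against 2.66% of all) and 7, 4 and 3 lost (2.77%, 2.72% and 4.69%, against 2.07%). In EF_IGF1 and EF_IGF1_xeno against Wt and Wt_IGF1 they had 9, 0 and 2 gained (3.56%, 0% and 3.13%, against 2.81%) and 20, 13 and 5 lost (7.91%, 8.84% and 7.81%, against 5.76%), again with 6 lost of Plod2.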

How the data were processed

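The peak lists of 12 ATAC-seq libraries were used. Per the labels' protocols, digitonin and the transposase TDE1 acted on whole cells in a single mix, and reads were single-end. The submitters' processing notes name MACS2, without a version, and the build GRCm38.p3. No source used here gives the aligner, the read filters, or whether reads were shifted for the transposase. Each library has its own list. The deposited values per peak are a fold over local background, which is a ratio. They also include p-values and q-values, deposited as −log10. The deposited score is −log10 q multiplied by 10. All are the authors' own and served here for description, for filtering inside 1 list and for ranking. The ranking ran across lists: named regions and the summit of each region were picked by the highest −log10 p of any library concerned.

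Peaks on chromosomes 1 to 19 and X were merged and assigned to the nearest of 21631 protein-coding genes of RefSeq GRCm38.p6 (whose chromosome coordinates equal those of p3), with Python 3.11.15, pandas 2.3.3 and scipy 1.17.1. A tie between genes touched 1 collagen region. Starts come from the RefSeq promoter table, and genes without one were read at each end. Gained and lost follow the rules given with each comparison, with Fisher's exact test and Benjamini-Hochberg adjustment over all regions for EF against Wt. Merging and counting were tested on simulated data. Per comparison and direction, values are given for up to 3 regions of different genes with the highest −log10 p, and for the starts of 9 collagens whatever their values. Collagen genes, classes and lists were chosen with earlier results of these data known. Alternatives were a stricter −log10 q (at least 5), summits widened by 250 bp each way, the 20000 strongest peaks per list, peaks covering at least 50% of a region, a distance of 10 kb, single flowcells or line names, and leaving out each library.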

Additional observations from a re-analysis of the deposited data

Results flagged for a closer look

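Among 20 sets of 4 libraries examined for a single library far from the others (the share of regions called, over all collagens and by class, in Wt and in EF), 1 stood out: in Wt replicate 1, 1.56% of the 64 multiplexin regions (Col15a1 and Col18a1) were called, against 39.1% to 45.3% in Wt replicates 2 to 4. Chance gives such a gap in about 1 of 20 sets. Wt replicate 1 also had the shortest list, 7748 peaks, and called 5.37% of all gene-assigned regions.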

How the results depend on the processing

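Depth is not known beyond list length, and its part in the number of calls was not tested. Under settings that did not leave out single libraries, 74 recomputed values stayed within the spread between libraries or within 1.5 times the count, and 27 did not, as follows. The cause of these differences was not tested, apart from the smaller number of regions or libraries that a setting itself leaves. EF against Wt gave 54 gained and 0 lost regions within flowcell BSF_0654 and 38 lost within BSF_1013, and 32 lost with both Wt libraries of BSF_0654 left out, a setting chosen after seeing the data. With the 20000 strongest peaks of each list, 235 collagen regions remained. Gained and lost regions then numbered 10 and 14 for EF against Wt on BSF_1013 (4.26% and 5.96%, against 3.22% and 4.33% of all regions) and 10 and 3 for EF_IGF1 against EF (4.26% and 1.28%, against 2.94% and 1.65%). They numbered 15 and 10 for EF_IGF1 and EF_IGF1_xeno against Wt and Wt_IGF1 (6.38% and 4.26%, against 5.18% and 4.48%) and 13 and 8 for Wt_IGF1 against Wt (5.53% and 3.40%, against 4.40% and 2.69%), with 9 lost in EF_IGF1_xeno (3.83% against 2.69%). For EF_IGF1 against EF, and for EF_IGF1 and EF_IGF1_xeno against Wt and Wt_IGF1, the lost share was thus below that of all regions, where with all peaks it was above. The shares called were 31.5% in Wt_IGF1, 38.3% in EF_IGF1 and 34.9% in EF_IGF1_xeno, against 38.0%, 38.8% and 38.6% of all regions. Collagen regions thus lay below all regions in these groups. With all peaks they lay above, at 56.5%, 43.8% and 29.9% against 52.5%, 39.6% and 27.9%. With peaks required to cover 50% of the region the shares in the same groups were 49.7%, 39.0% and 24.9%. All regions then stood at 45.9%, 35.9% and 22.3%. The 2 regions lost in Wt_IGF1 became 6 with that cover, 4 at a −log10 q of 5 or more, and 1 within 10 kb of a gene. By line name, EF_IGF1 against EF gave 153 gained and 77 lost for S_220 and 77 and 75 for S_221.

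A library left out changes the rule, since its side must then show calls, or none, in all libraries that remain. Leaving out each library in turn gave 1 to 28 gained and 0 to 5 lost for EF against Wt, 24 to 78 and 49 to 106 on BSF_1013, 34 to 114 and 27 to 63 for EF_IGF1 against EF, and 25 to 41 and 49 to 82 for EF_IGF1 and EF_IGF1_xeno against Wt and Wt_IGF1. It gave 118 to 133 and 15 to 83 for Wt_IGF1 against Wt and 12 to 15 and 93 to 123 for EF_IGF1_xeno. The share called ranged from 19.7% to 36.7% in Wt, 25.8% to 35.2% in EF and 41.8% to 45.7% in EF_IGF1. No paired test was run, because calls by rule come from no fitted model and the replicate numbers, given in accession order, pair no libraries. Line names do match libraries on BSF_1013: with IGF1 the share of collagen regions called was higher by 11.1 percentage points in the library labelled S_220, by 0.293 in that of S_221 and by 17.3 in that of BM, each 1 library against 1. Less the same difference over all regions, these were 6.36, 3.20 and 1.04 points.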
